A study of Mus musculus with 6 samples.

Results

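Rad51b, Zfp386 and L3hypdh are genes of the distal part of mouse chromosome 12 whose liver signals differed between A/J and A/J-12SM mice. They were chosen by the strain difference measured on these same arrays, as genes outside the R2 and R3 intervals of the congenic strains whose brightest probe sets had an adjusted p under 0.05. The adjusted p from limma that chose Rad51b was 0.00323, that of Zfp386 was 0.0035 and that of L3hypdh 0.0203. Since the strain difference selected the genes, it is given below as a description and not as a test. Every probe set named for exactly 1 of the 3 genes was taken, which gave 5 of the 45037 probe sets and 3 of the 18194 genes on the array. Rad51b and Zfp386 each had 2 probe sets and L3hypdh had 1. The array reads several short probes against 1 transcript together, as a probe set with 1 signal.

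A/J is an inbred strain, and A/J-12SM is a consomic strain with chromosome 12 of SM/J on the A/J background. Male mice of both strains received a high-fat diet for 7 weeks. The labels of these arrays give no age or fasting time, and the diet from 6 to 13 weeks of age and the 4-h fast in the methods are described there for the congenic experiment with these strains. RNA from 3 mice was pooled for each array, with 3 arrays for A/J and 3 for A/J-12SM, so a replicate is a pool and not a single animal. The labels call the arrays biological replicates, and the p-values measure the spread between these pools. Every A/J-12SM array carried SM/J chromosome 12 and no A/J array did, so unequal binding of the probes to SM/J transcripts and unequal transcript levels cannot be told apart for genes of this chromosome.

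Rad51b forms the BCDX2 complex with Rad51c, Rad51d and Xrcc2. The complex acts when double-strand breaks in DNA are repaired by homologous recombination, a process most active in dividing cells and little used in the resting liver. L3hypdh encodes trans-L-3-hydroxyproline dehydratase, which removes water from a hydroxyproline that is found mainly in basement membrane collagen and becomes free when collagen is broken down. Zfp386 encodes a C2H2 zinc finger protein. Many proteins of this large class carry a KRAB domain that recruits the corepressor Trim28 to DNA.

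On the GRCm38.p6 annotation L3hypdh lies at chr12:72069518-72085433, Rad51b at chr12:79297282-79848260 and Zfp386 at chr12:116047714-116063231. Their lowest coordinates lie 25.3, 32.6 and 69.3 Mb beyond the distal end of R3, and each also lies outside Fl1sa, the fatty liver locus under study. By the same coordinate L3hypdh and Rad51b lie 7.23 Mb apart, and Zfp386 lies 36.8 Mb further on. Rad51b spans 551.0 kb, against 15.9 kb for L3hypdh and 15.5 kb for Zfp386. L3hypdh overlaps 2 annotated genes, of which Gpr135 is protein-coding, Rad51b overlaps 2 long non-coding RNA genes, and Zfp386 overlaps none.

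The region around the transcription start of each gene, 250 bases before it to 50 bases after it, is shown here because it is where transcription of the gene begins. The sequences are those of RefSeq on GRCm38.p6, that is of C57BL/6J and of neither strain studied, and the arrays do not measure them. They run 5′ to 3′ along the gene, and capitals mark the letters of the GC box (GGGCGG), the CCAAT box (CCAAT), the TATA box (TATAAA), the cell cycle homology region (TTTGAA) and the core of the ZNF143 motif (ACTACAATT), each searched on both strands. The motifs were chosen after the sequences had been seen.
L3hypdh, chr12:72085264-72085563, minus strand: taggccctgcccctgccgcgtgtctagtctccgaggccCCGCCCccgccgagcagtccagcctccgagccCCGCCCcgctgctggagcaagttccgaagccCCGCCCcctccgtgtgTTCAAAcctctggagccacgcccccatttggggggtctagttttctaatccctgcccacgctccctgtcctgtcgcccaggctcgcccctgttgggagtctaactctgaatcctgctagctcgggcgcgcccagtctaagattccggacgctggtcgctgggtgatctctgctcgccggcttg
Rad51b, chr12:79297032-79297331, plus strand: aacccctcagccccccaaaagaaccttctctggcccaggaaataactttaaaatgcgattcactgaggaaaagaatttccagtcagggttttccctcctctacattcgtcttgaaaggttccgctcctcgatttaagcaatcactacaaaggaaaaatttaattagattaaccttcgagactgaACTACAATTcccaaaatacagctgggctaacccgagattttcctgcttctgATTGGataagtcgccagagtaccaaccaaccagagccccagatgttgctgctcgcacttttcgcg
Zfp386, chr12:116047474-116047773, plus strand: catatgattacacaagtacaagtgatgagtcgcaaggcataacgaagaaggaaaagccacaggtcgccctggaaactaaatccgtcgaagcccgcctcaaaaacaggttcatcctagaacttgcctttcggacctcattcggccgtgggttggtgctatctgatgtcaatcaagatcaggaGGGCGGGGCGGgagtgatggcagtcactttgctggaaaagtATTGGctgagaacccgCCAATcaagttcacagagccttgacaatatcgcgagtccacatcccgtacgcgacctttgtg

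The 3 windows differed in composition. The L3hypdh window was 67.0% G and C with 24 CpG and the Zfp386 window 51.0% with 17, against a median of 52.7% and 7 CpG over 32851 promoter windows of the same length. The Rad51b window held fewer G and C than either, and 10 CpG. L3hypdh held 3 GC boxes and 1 cell cycle homology region. Zfp386 held 2 GC boxes, which overlap by their last and first letter, and 2 CCAAT boxes. Rad51b held 1 CCAAT box and 1 ZNF143 core, and its other RefSeq start, slightly downstream, kept both and added a cell cycle homology region. A GC box was found in 35.7%, a CCAAT box in 37.4%, a cell cycle homology region in 17.9% and the ZNF143 core in 0.393% of all windows. The TATA box, found in 13.6% of them, was in none of the 3. No motif searched was in all 3 windows.

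In liver the Rad51b signal was higher in A/J-12SM than in A/J mice by its bright probe set, whose reference sequence is the curated transcript NM_009014. The deposited signals on a linear scale were 455.9, 510.2 and 565.7 for A/J, and 1030, 1099 and 1090 for A/J-12SM. The strains did not overlap, and the lowest A/J-12SM signal was 1.82 times the highest A/J signal. After quantile normalization, which gives all arrays the same distribution of signals, the log2 values were 8.88 ± 0.18 (SD, n = 3 arrays) and 10.17 ± 0.02 (SD, n = 3). The log2 difference, taken here and below as A/J-12SM minus A/J, was 1.29 (SE 0.11), or 2.45-fold. The A/J-12SM arrays lay within 0.05 of each other, and the A/J arrays spread further, with replicate 1 the lowest at 8.68.

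The second Rad51b probe set, whose reference sequence is the cDNA AK015771, did not show this difference. It was dim, with a mean below the median log2 signal of 5.33 over all probe sets. Its deposited signals were 54.0, 39.0 and 32.6 for A/J, and 16.7, 44.0 and 1.35 for A/J-12SM liver, and the arrays of the strains overlapped. The log2 means were 5.23 ± 0.26 (SD, n = 3) and 3.42 ± 2.53 (SD, n = 3), a difference of -1.81 (SE 1.03). Most of it came from A/J-12SM replicate 3, without which it was -0.40, while without A/J-12SM replicate 2 it was -2.82. On the array of A/J-12SM replicate 3 the actin probes at the 5′ end gave 0.423 of the signal of those at the 3′ end, the lowest of the 6 arrays (0.553 to 0.590 on the others), and its part in the value was not tested. With the mean of both probe sets in place of the brighter, the Rad51b difference was -0.26. Across the array, in 5193 pairs of a bright probe set and a dim one of the same gene, 48.2% had differences of opposite sign and the median gap between them was 0.46. The gap of Rad51b was 3.10, and 0.25% of the pairs had one as large. Nothing can be read from this share. The strain difference of the bright probe set chose Rad51b, and most of the dim value came from A/J-12SM replicate 3. Which Rad51b transcripts the dim probe set covers is not given in the sources used here.

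Zfp386 was lower in A/J-12SM liver by both of its probe sets, which gave nearly the same difference. The brighter one, with the reference sequence BC004747, had deposited signals of 490.9, 437.4 and 391.5 on the A/J arrays. On the A/J-12SM arrays they were 91.3, 88.9 and 119.5. Every A/J signal was thus at least 3.27 times every A/J-12SM signal, and the ratio of the means was 4.40. The normalized log2 means were 8.67 ± 0.15 (SD, n = 3) and 6.74 ± 0.29 (SD, n = 3), with a difference of -1.93 (SE 0.17). The other probe set, with NM_019565 and an ending that stands for alternative transcripts of the gene, had 278.9, 234.2 and 283.8 on the A/J arrays against 68.5, 54.2 and 71.8 on those of A/J-12SM. The arrays did not overlap here either, and the lowest A/J signal was 3.26 times the highest A/J-12SM signal. Its log2 means were 7.93 ± 0.14 (SD, n = 3) and 6.12 ± 0.33 (SD, n = 3), with a difference of -1.81 (SE 0.19).

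The A/J-12SM arrays kept the same order in both Zfp386 probe sets, with replicate 2 the lowest and replicate 3 the highest. The A/J arrays did not, since replicate 3 was the lowest in one and the highest in the other. The probe sets differed from each other by 0.12 in their strain difference. The median gap was 0.15 in 8297 pairs of bright probe sets of the same gene, of which 40.5% had opposite signs. A gap at least that of Zfp386 was found in 60.0% of the pairs. Nothing can be read from the shared sign beside these pairs, since the strain difference chose Zfp386 and the pairs are of all genes. In A/J-12SM liver the means of both were still above the median log2 signal of all probe sets. Among the brighter probe sets, those not below the median of 5.33, the Zfp386 differences ranked 7th and 11th by size, that of Rad51b 56th and that of L3hypdh 210th. These ranks are no separate support, since the genes were chosen by this difference.

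L3hypdh had a lower signal in A/J-12SM than in A/J liver by its single probe set, with the reference sequence BC004753. The deposited signals were 501.4, 474.9 and 540.9 on the A/J arrays, and 223.3, 234.7 and 233.2 on the A/J-12SM arrays. The strains did not overlap, and the lowest A/J signal was 2.02 times the highest A/J-12SM signal. The normalized log2 means were 8.87 ± 0.08 (SD, n = 3) and 7.96 ± 0.05 (SD, n = 3), and the difference was -0.91 (SE 0.10), or 1.88-fold. This was the smallest of the differences in the bright probe sets of the 3 genes and also the one with the smallest SE. The typical SD within a strain was 0.21 for the brighter probe sets of the array. With a single probe set, no second measurement of L3hypdh stands beside it.

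**Figure D1:**
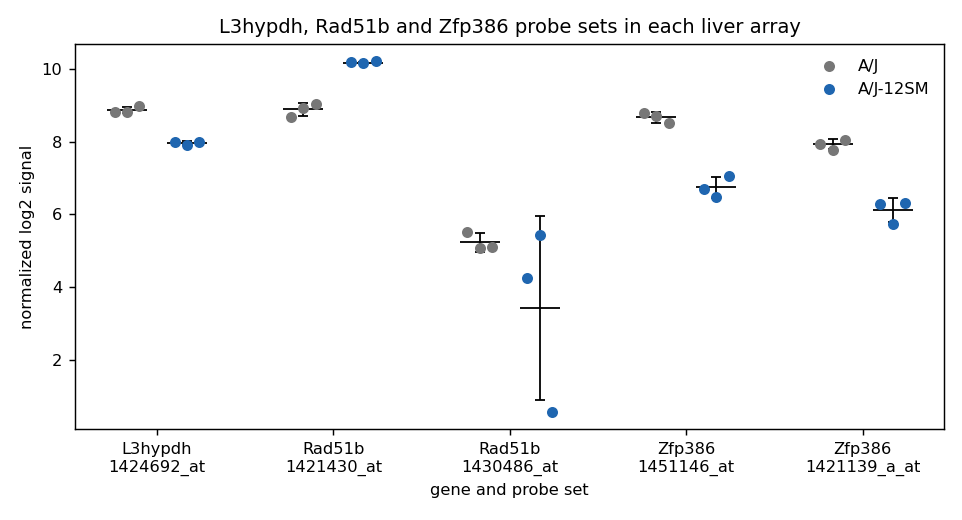
Normalized log2 signal (y axis) of the 5 probe sets of L3hypdh, Rad51b and Zfp386 (x axis) by array, grey for A/J and blue for A/J-12SM liver. A point stands for 1 array of RNA from 3 mice, a horizontal line for the mean and a bar for the SD of 3 arrays. The strains are apart in every probe set except the dim one of Rad51b, where A/J-12SM replicate 3 lies at 0.58.

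By their brightest probe sets the strains did not overlap in any of the 3 genes, 1 higher and 2 lower in A/J-12SM liver, while 12.3% of all 18194 genes did not overlap (5.97% higher and 6.35% lower). All 3 had an adjusted p under 0.05, against 0.066% of all genes (0.0275% higher and 0.0385% lower) and 0.0555% of the 45037 probe sets. Nothing can be read from either count, since the strain difference chose the genes. In the methods' t-test none of the 3 passed, each with an adjusted p of 0.535, and with 1 prior variance for all probe sets limma gave 0.282 for Rad51b and Zfp386 and 0.393 for L3hypdh. L3hypdh also lost its call with arrays centred on their median (adjusted p = 0.162 from limma) and without any single array other than A/J-12SM replicate 3 (0.0984 to 0.169). Zfp386 lost its call without A/J replicate 2 (0.0548). Of the genes beyond R3, L3hypdh was the last inside the limit. The next one outside it was 5033406O09Rik at chr12:111941991-111944482, with a difference of -3.63 (SE 0.51) and an adjusted p of 0.0575.

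Normalization set part of the size. The deposited signals were lower in A/J-12SM arrays as a whole, with a median difference of -0.22 over all probe sets, while bacterial spike-in controls differed by 0.03. In the deposited log2 values L3hypdh differed by -1.13, Rad51b by 1.08 and Zfp386 by -2.15 and -2.04. Taken relative to that shift, the differences were -0.91, 1.30, -1.92 and -1.82. The dim Rad51b probe set apart, the probe sets kept their sign in each of 10 other processings or sets of arrays, within -1.13 to -0.85 for L3hypdh, 1.08 to 1.36 for Rad51b, and -2.15 to -1.80 and -2.04 to -1.63 for Zfp386.

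**Figure D2:**
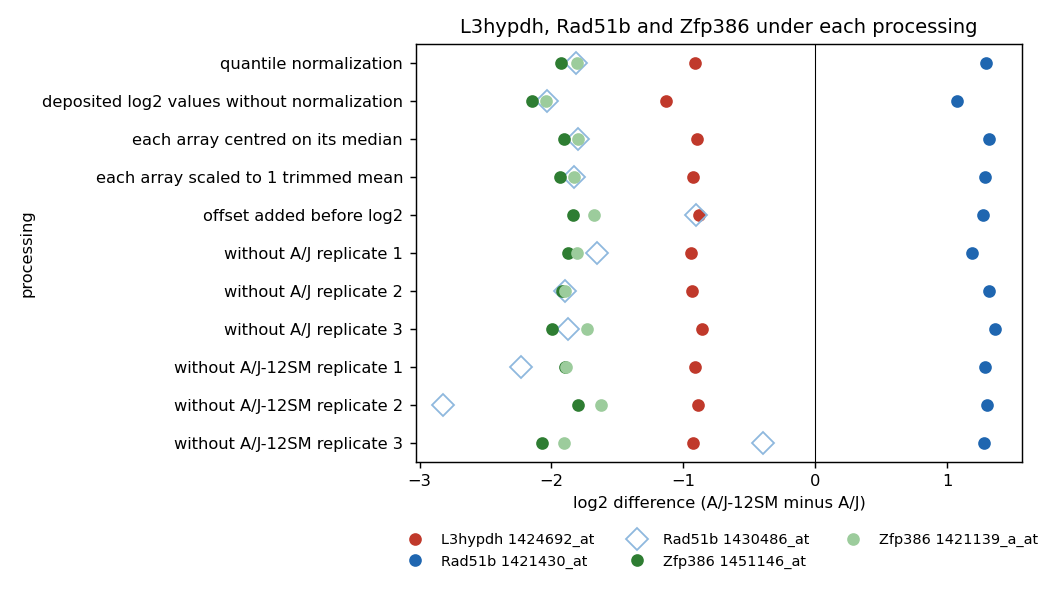
Difference in log2 signal (A/J-12SM minus A/J, x axis) of the 5 probe sets under quantile normalization and 10 alternatives (y axis), each point 1 probe set. The filled points of L3hypdh, Rad51b and Zfp386 stay on their side of 0 throughout, and the open diamonds of the dim Rad51b probe set range from -2.82 to -0.40.

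The genes next to each of the 3 were then examined, all of them on the same SM/J chromosome. A neighbour is a gene on the array whose start, taken as its lowest coordinate on either strand, lies within 1 Mb of that of L3hypdh, Rad51b or Zfp386, and it is represented by its brightest probe set and tested with limma over all probe sets. None of 17 neighbours of L3hypdh, 16 of Rad51b and 7 of Zfp386 passed an adjusted p under 0.05 in limma, or in the methods' t-test after the same adjustment. At an unadjusted p under 0.05, limma gave 4, 3 and 1 of them and the methods' t-test 3, 1 and 0, where they gave 6.78% and 6.17% of all genes. Of the 622 genes of chromosome 12 as a whole, limma gave 90 and the methods' t-test 69 at this limit. The median differences were 0.26, 0.06 and -0.02, beside -0.01 over all genes, and without A/J replicate 2 that of the L3hypdh neighbours was 0.01. The strains did not overlap in 4, 2 and 1 of the neighbours, or 23.5%, 12.5% and 14.3%, where they did not overlap in 17.4% of the 622 genes of chromosome 12 and in 12.3% of all genes.

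Next to L3hypdh, Gpr135, an orphan receptor that overlaps it, had a difference of 0.39 (SE 0.29, adjusted p = 0.867 from limma). Jkamp, a membrane protein that binds a stress kinase, lies at chr12:72085548-72101527, so that its lowest coordinate falls inside the window shown above around the transcription start of L3hypdh, and it had 0.37 (SE 0.11, adjusted p = 0.622 from limma). Both values are positive where that of L3hypdh is negative. Dhrs7, a short-chain dehydrogenase with its lowest coordinate 580.8 kb from that of L3hypdh, had the largest difference among the brighter neighbours. Its log2 mean was 9.09 ± 0.10 (SD, n = 3) in A/J-12SM liver, -0.68 relative to A/J (SE 0.10, adjusted p = 0.0643 from limma), and it was the 1 neighbour that passed in the deposited values without normalization. Next to Rad51b, Zfyve26 had 0.13 (SE 0.13) and the transcript 9430078K24Rik had -0.09 (SE 0.33). The brighter neighbour with the largest difference was Rdh11, a retinol dehydrogenase that starts at -123 kb relative to Rad51b, with -0.78 (SE 0.21, adjusted p = 0.569 from limma). Actn1, also bright and named after its value was seen, had 0.67 (SE 0.17, adjusted p = 0.51 from limma). The strains did not overlap in either. Of the 16 neighbours of Rad51b, 9 had higher and 7 had lower values in A/J-12SM liver.

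Zfp386 starts near the distal end of the chromosome. Probe sets matched to several genes were not used. Of 89 genes that start within 1 Mb of Zfp386, 7 had a probe set of their own, and none of them starts before it. The nearest on the other side was Vipr2, a receptor for vasoactive intestinal peptide, which starts 29.7 kb after it. Vipr2 was dim and had a difference of 1.65 (SE 0.59, adjusted p = 0.735 from limma), with every A/J-12SM array above every A/J array. Only 1 of the 7 neighbours, Esyt2, was at or above the median brightness, and its difference was -0.01 (SE 0.16).

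**Figure D3:**
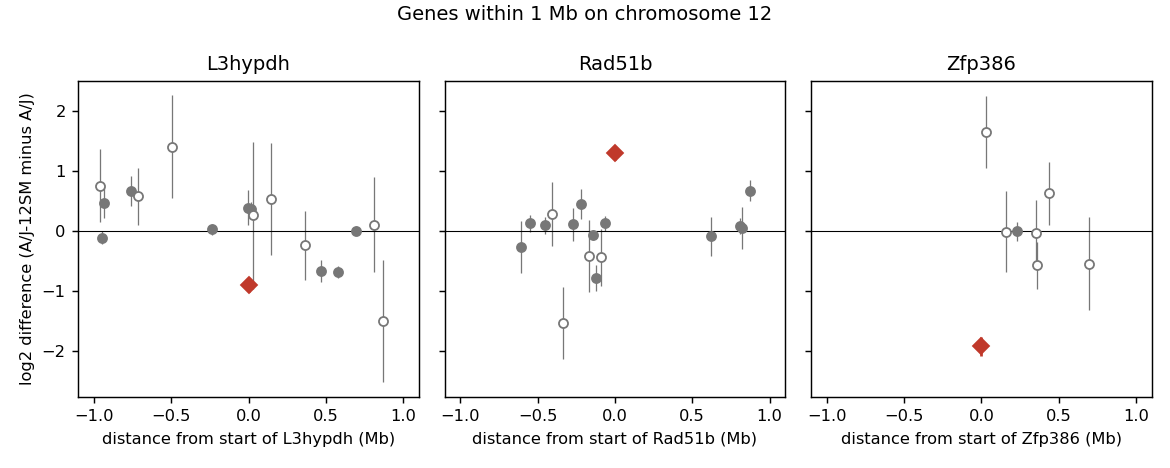
Difference in log2 signal (A/J-12SM minus A/J, y axis) of genes on the array by the distance of their lowest coordinate from that of L3hypdh, Rad51b or Zfp386 (x axis, Mb). Each gene is shown by its brightest probe set, with its SE from limma. Red diamonds are the named genes, filled points are neighbours at or above the median brightness and open points are dimmer ones. None of the neighbours passed the test, and Vipr2 at 1.65 lies next to Zfp386 at -1.93.

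The other genes of homologous recombination were measured to set Rad51b beside its pathway. Of 38 listed genes, 35 were on the array, and 22 of these were at or above the median brightness. None passed an adjusted p under 0.05 in limma or in the methods' t-test. At an unadjusted p under 0.05 there was 1 in limma and there were 2 in the methods' t-test, where 6.78% and 6.17% of all genes were. The 1 in limma, named after its value was seen, was Zswim7 at -0.32 (SE 0.13, adjusted p = 0.774 from limma). The values were higher in A/J-12SM liver for 24 genes and lower for 11, with a median of 0.10 beside -0.01 for all genes, and the strains did not overlap in 3 of them, or 8.57%, against 12.3% of all genes. With the dim probe sets left out the median was 0.04. Of the partners of Rad51b in its complex, Rad51c had 0.65 (SE 0.64) close to background, and Rad51d had -0.29 (SE 0.22). Xrcc3, which pairs with Rad51c outside the complex, was dim as well, at -0.09 (SE 0.59), and Xrcc2 was not analysed here. Brca2, a mediator of recombination at resected DNA, had 0.42 (SE 0.24), and Mus81, a nuclease of recombination intermediates, had 0.33 (SE 0.31). The adjusted p-values from limma of Rad51c, Rad51d, Xrcc3, Brca2 and Mus81 ranged from 0.833 to 0.988.

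Genes of proliferating cells were listed too, because recombination genes are most active there. None of 19 passed in limma or the methods' t-test, and at an unadjusted p under 0.05 there were 3 and 1, beside 6.78% and 6.17% of all genes. Lower values were seen in A/J-12SM liver for 13 genes, with a median of -0.38, and only 8 genes were at or above the median brightness. An offset on the signals brought it to -0.12, and the deposited values gave -0.61. Leaving out A/J replicate 2 or 3 gave -0.25 or -0.17, and leaving out A/J-12SM replicate 1 or 2 gave -0.14 or -0.21. The replication helicase subunits Mcm4 and Mcm3 had -0.52 (SE 0.28) and -0.38 (SE 0.28), while Mcm6 and Mcm7 of the same helicase, named after their values were seen, had 0.20 (SE 0.28) and 0.08 (SE 0.11). The other brighter genes, named in the same way, were Pcna at 0.11, Rrm1 at 0.04, and Mcm2 and Mcm5 at -0.06 each. The brighter genes thus went both ways. The widest values were in dimmer genes, such as Ccnb2 at -3.2 (SE 0.84) and Aurkb at 1.06 (SE 0.74).

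Around L3hypdh, 14 of 16 genes of proline and hydroxyproline metabolism were measured, 7 with higher and 7 with lower values and a median of -0.01. None passed in limma or the methods' t-test, and at an unadjusted p under 0.05 there were 2 and 1, beside 6.78% and 6.17% of all genes. Prodh2, the hydroxyproline oxidase of the liver, had log2 means of 10.44 ± 0.08 and 10.42 ± 0.17 (SD, n = 3 each), a difference of -0.03 (SE 0.10). Hoga1, which splits the last intermediate of hydroxyproline breakdown, had -0.06 (SE 0.11). Both act on the 4-hydroxyproline route, and both were bright and had differences near 0 in the arrays in which L3hypdh had -0.91. Got1, the cytosolic aspartate aminotransferase, had the largest difference of the brighter genes, 0.56 (SE 0.12, adjusted p = 0.373 from limma), and its arrays did not overlap between strains. Ddo, D-aspartate oxidase, had 0.38 (SE 0.16, adjusted p = 0.797).

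The genes that make the hydroxyproline of collagen were also measured. None of 13 genes of collagen prolyl and lysyl hydroxylation and none of 13 collagen chains passed in limma or the methods' t-test. At an unadjusted p under 0.05 there were 0 and 2 in limma, and 0 and 2 in the methods' t-test, beside 6.78% and 6.17% of all genes. Their medians were -0.04 and -0.01. Crtap, a partner of the prolyl 3-hydroxylase, had -0.25 (SE 0.17), and P4hb, a subunit of prolyl 4-hydroxylase, had -0.19 (SE 0.10). Among the chains, Col4a1 of the basement membrane had 0.36 (SE 0.12) and Col14a1 had -0.27 (SE 0.09), both with an adjusted p of 0.706 from limma and with strains that did not overlap.

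For Zfp386 the comparison was with 304 other genes named Zfp and a number. None passed in limma or the methods' t-test, and at an unadjusted p under 0.05 there were 14 and 15, beside 6.78% and 6.17% of all genes. Of these genes 183 had higher and 121 had lower values in A/J-12SM liver, with a median of 0.08 and a range of -2.12 to 2.49. The strains did not overlap in 28 of them, or 9.21%, 19 higher and 9 lower, against 12.3% of all genes, 5.97% higher and 6.35% lower. Among the brighter ones Zfp788 had 1.1 (SE 0.32, adjusted p = 0.599 from limma) and Zfp691 had -0.77 (SE 0.64, adjusted p = 0.885). The 3 of them that were matched on this array to chromosome 12 lay between -0.22 for Zfp410 and 0.06 for Zfp839. None of 13 genes of the corepressor that KRAB zinc finger proteins recruit passed in either test, also before adjustment. They lay between -0.29 for Chd3 (SE 0.15) and 0.29 for Atf7ip (SE 0.16), with a median of 0.05.

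**Figure D4:**
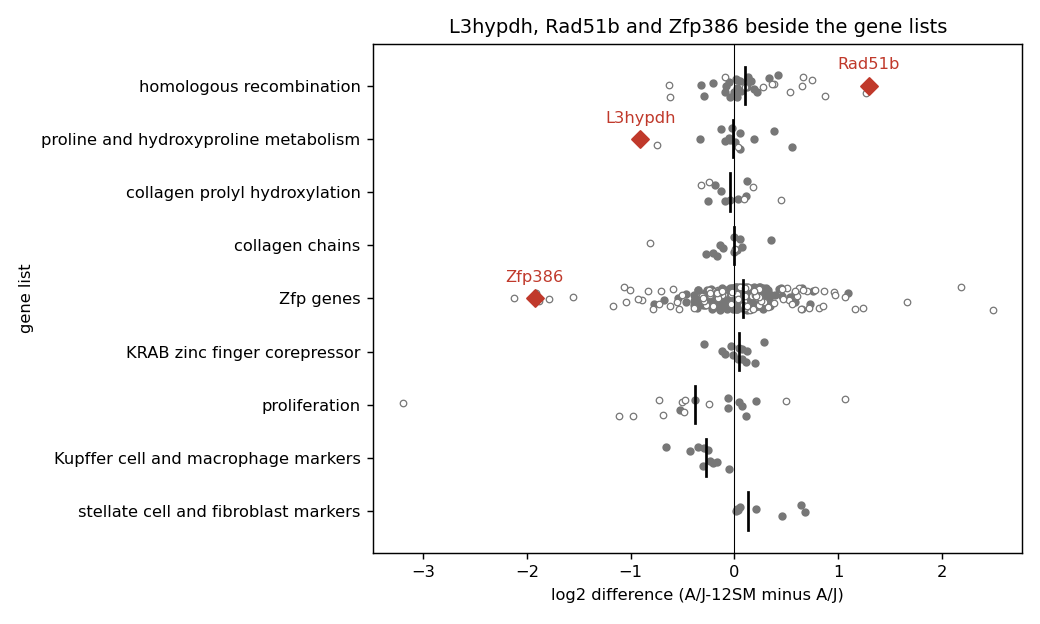
Difference in log2 signal (A/J-12SM minus A/J, x axis) of the genes of the lists named on the y axis, by the brightest probe set of each gene. Filled points are at or above the median brightness, open points are dimmer, black lines are list medians and red diamonds are Rad51b, L3hypdh and Zfp386, which are in no list median. No gene of these lists passed the test, and the medians lie between -0.38 for proliferation and 0.13 for stellate cell markers.

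The makeup of the tissue was described by markers, since in whole liver fewer cells of a type and less RNA per cell cannot be told apart. The hepatocyte markers Alb and Cps1 were at 14.01 and 13.78 on the log2 scale in A/J-12SM liver, with differences of 0.11 (SE 0.08) and 0.28 (SE 0.09), so the arrays carried the markers of the labelled tissue, and the median of 8 hepatocyte markers was -0.01 (1 of them at an unadjusted p under 0.05 in limma and 1 in the methods' t-test). The 10 Kupffer cell and macrophage markers all had lower values in A/J-12SM liver, with a median of -0.27 (Marco -0.66, SE 0.42, and Cd5l -0.43, SE 0.11). The 8 stellate cell and fibroblast markers all had higher ones, with a median of 0.13 (Gfap 0.68, SE 0.35, and Lum 0.64, SE 0.23). No marker passed in limma or the methods' t-test, and at an unadjusted p under 0.05 there were 2 and 1 for each of these last lists, beside 6.78% and 6.17% of all genes. The mean of the macrophage markers, each centred over the 6 arrays, ran from -0.02 to 0.26 in A/J and from -0.39 to 0.14 in A/J-12SM arrays, and that of the stellate markers from -0.22 to -0.07 and from -0.06 to 0.37. In the deposited values the median of the stellate list was -0.08, or 0.14 relative to the shift of all probe sets. The median was -0.01 for 7 sinusoidal endothelial markers (Lyve1 -0.45 and Fcgr2b 0.37), of which 1 in limma and 2 in the methods' t-test were at an unadjusted p under 0.05. Bile duct, lymphocyte and neutrophil markers were near background, with 1 of 5, 1 of 6 and 2 of 4 at or above the median brightness. Their medians were -0.60, 0.21 and -0.21, and none held its sign throughout. The bile duct median was 0.07 with the probe sets of a gene averaged and -0.31 with an offset. The lymphocyte median was -0.19 without A/J replicate 3 and -0.08 without A/J-12SM replicate 3. The neutrophil median was 0.04 or 0.05 when A/J replicate 1 or 2 was dropped and 0.04 when A/J-12SM replicate 2 was. The brighter ones were Epcam at -0.60, Ms4a1 at 0.24, and S100a9 at 0.37 and S100a8 at -0.20. Of these 1 bile duct marker was at an unadjusted p under 0.05 in limma. No marker list had a median of exactly 0, though those of the hepatocyte and sinusoidal endothelial markers were only -0.01. Relative to the shift of all probe sets, the medians of the lists kept their sign under every scaling tried, except for the hepatocyte markers (-0.01 to 0.17) and the proline genes (-0.01 to 0.02). The part of the marker differences in those of Rad51b, Zfp386 and L3hypdh was not tested.

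The genes whose pattern over the 6 arrays was most like that of each gene were sought among 19336 of the brighter probe sets, by Pearson correlation. For L3hypdh these were Entpd5 (r = 0.995), Adi1 (r = 0.993) and Tor1a (r = 0.989). Their strain differences were -0.33, -4.05 and -0.16. For Rad51b they were Gpcpd1 (r = 0.995), Colec11 (r = 0.992) and Stim1 (r = 0.991), with 0.77, 0.41 and 0.56. For Zfp386 they were Ces2e (r = 0.998), Depdc5 (r = 0.991) and Ctbs (r = 0.989), with -0.74, -0.44 and -0.22. Entpd5, Adi1 and Colec11 lie on chromosome 12, and the other 6 on other chromosomes. With 6 arrays in 2 groups any gene that separates the strains correlates highly, and with each array centred on its median none of the 3 genes for L3hypdh and 1 each for Rad51b and Zfp386 were named again.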

How the data were processed

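The authors deposited intensity values on a linear scale, 1 per probe set and array, made with MAS 5 per the labels, a method that subtracts background and combines the probes of each set. How the arrays were scaled is not given in the labels or methods. Of 45101 probe sets, 64 controls were left out. Log2 values were quantile-normalized, since array levels differed (trimmed means of 201 to 213 in A/J and 171 to 186 in A/J-12SM).

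Probe sets were named from the platform annotation, updated by gene ID through the GRCm38.p6 RefSeq table (34741 of 34945 with 1 gene matched, 932 had several genes and 9160 none). The probe set with the highest mean stood for a gene. Strains were compared with limma 3.58.1 in R 4.3.3 (trended prior variance, no covariates), two-sided, adjusted by the Benjamini-Hochberg method over 45037 probe sets, with 11 called higher and 14 lower at an adjusted p under 0.05. The methods' t-test, which the paper does not describe for picking array genes, called 1 after the same adjustment. The number of arrays limits the precision. The typical SD within a strain was 0.21 at or above the median brightness and 0.86 below it, and arrays correlated with r of 0.921 to 0.933 within and 0.922 to 0.930 between strains.

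The rule named every probe set of the 3 genes, the nearest and the most different brighter neighbour, the called genes or the 2 most different brighter genes of each of 13 lists (fewer where fewer were bright) and of the Zfp genes, with Rad51c, Rad51d, Xrcc2, Xrcc3, Prodh2 and Hoga1, and the 3 genes of most similar pattern. Members and lists were chosen with earlier results of these data known. Some items are not reported here. The limma step was tested on simulated data with 200 of 45037 probe sets changed in 5 runs. At or above the median brightness limma found 33.9% of simulated log2 changes of 1 and 81.3% of those of 2, and 2.2% of calls were false. Alternatives were the deposited values, other scalings, an offset, a filter on dim probe sets, other probe set rules, 1 prior variance, the replicate number as a block, and each array left out in turn. Tables and figures were made in Python 3.11.15 with matplotlib 3.10.9.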

Additional observations from a re-analysis of the deposited data

How the results depend on the processing

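The number of probe sets called by limma was 25, and it was 47 in the deposited log2 values without normalization, 1 with 1 prior variance for all probe sets and 1 in the methods' t-test. It ran from 6 to 23 with single arrays left out, with 14, 6 and 11 when A/J replicates 1, 2 and 3 were dropped and 16, 14 and 23 when the A/J-12SM replicates were. In the deposited values the difference of L3hypdh was -1.13 and that of the bright Rad51b probe set 1.08, both moved by the shift of all probe sets, and 1 neighbour of L3hypdh, Dhrs7, passed. By their brightest probe sets, Rad51b passed in limma under every other alternative than 1 prior variance, Zfp386 failed also without A/J replicate 2, and L3hypdh failed also with median centring and without each array but A/J-12SM replicate 3. The Rad51b difference turned to -0.26 when the probe sets of a gene were averaged, which gives its dim probe set equal weight. After adding 9.2, the 20th percentile of the signals, before log2, the dim Rad51b probe set had -0.90.

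Of the 3 genes most like each gene, 1 was shared in the deposited values for each of L3hypdh, Rad51b and Zfp386. With arrays centred on the median 0 were shared for L3hypdh, 1 for Rad51b and 1 for Zfp386, and with arrays scaled to 1 trimmed mean 1 for Rad51b. The cause was not tested. Over all probe sets, same-numbered arrays of the strains did not deviate together (correlations of -0.007, 0.01 and 0.03). This shows no pairing by number but cannot exclude one, since the dimmer probe sets, with their larger SD, were included. With the replicate number as a block 28 probe sets were called, and no count of called neighbours or listed genes changed. Those counts stayed at 0 under each alternative run, apart from Dhrs7.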
